A study of Mus musculus with 6 samples.

Results

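Eef1a1 and Eef2, the genes of the mouse translation elongation factors eEF1A1 and eEF2, were followed through every cDNA clone that the array's probe annotation assigns to either gene. The array carries each clone as a pair of neighbouring spots, and 22 of its 15600 clones were annotated to these genes, 17 to Eef1a1 (34 spots) and 5 to Eef2 (10 spots). Cells of the mouse neuroblastoma line Neuro-2a were transiently transfected with a plasmid for human TBP, the TATA binding protein, fused to GFP and carrying a CAG repeat length of 59 (59Q), or with the pEGFP-N3 vector (N3), which expresses GFP alone. Total RNA of both was taken 60 h later and hybridized together on 6 two-colour arrays, 59Q being labelled with Cy5 on replicates 1, 3, 4 and 6 and with Cy3 on replicates 2 and 5. Both groups thus share the cell line, the transfection reagent and GFP, and the 59Q construct adds TBP together with its repeat, so that an effect of added TBP and an effect of the repeat cannot be told apart on these arrays. The transfection reached only part of the cells and RNA was taken from whole cultures, so fewer cells with a transcript and less transcript per cell cannot be told apart either. The study set out to learn how an expanded polyglutamine stretch in TBP changes transcription, and both elongation factors were among the genes it singled out.

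Translation elongation is the step in which the ribosome adds amino acids to the growing chain. eEF1A binds GTP and carries each aminoacyl-tRNA to the ribosome, the eEF1B complex exchanges the GDP left on it, and eEF2 moves the ribosome along the mRNA by one codon. eEF2 carries diphthamide, a modified histidine, and is inhibited when eEF2 kinase phosphorylates it. Both transcripts are very abundant in growing cells and belong to the TOP mRNAs, whose translation is governed by the TOR pathway together with that of the ribosomal proteins.

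Since TBP is the factor that recognizes the TATA box, the upstream sequence of both genes is shown. In the RefSeq annotation of assembly GRCm38.p6, Eef1a1 lies on the minus strand of chromosome 9 between 78478453 and 78481724, and Eef2 on the plus strand of chromosome 10 between 81176631 and 81182509. The 100 bases before each annotated start, at chr9:78481725-78481824 for Eef1a1 and chr10:81176531-81176630 for Eef2, and 30 bases around the only match in Eef1a1, at chr9:78481682-78481711, are written 5′ to 3′ on the strand of the gene, with TATAA in capitals.
Eef1a1, before the start: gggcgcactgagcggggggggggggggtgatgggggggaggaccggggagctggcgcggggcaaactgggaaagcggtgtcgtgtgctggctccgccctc
Eef1a1, around the match: gggagaacggtaTATAAgtgcggcagtcgc
Eef2, before the start: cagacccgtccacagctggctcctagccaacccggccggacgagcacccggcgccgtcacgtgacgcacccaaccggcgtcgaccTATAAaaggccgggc
In Eef2 the first base of TATAA stood at position -15, upstream of the annotated start. In Eef1a1 no TATAA lay in the printed upstream stretch, and its match began at position 26 inside the annotated gene. The search covered RefSeq promoter windows of 300 bases, which include the printed stretches and the first bases after the start, and neither gene's window held a match on the other strand. TATAA was present on the gene strand in 17.5% of 32851 such windows and on either strand in 24.9%, so the match by itself is common. The Eef2 match, unlike that of Eef1a1, extends to TATAAA. This longer stretch was present on the gene strand in 8.32% of the windows and on either strand in 13.6%. The matches are a description of the letters and were set against no binding data here.

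The deposited value of a spot is a Z-ratio, the difference between both samples scaled so that every array has a mean of 0 and an SD of 1 over its spots. A Z-ratio is a score without levels, so neither a fold change nor the presence of neuroblastoma markers could be read from it. No source used here states the direction of each value. In the methods 59Q is the treated sample and N3 the control, and a value above 0 was therefore taken as likely higher with 59Q on every array (as deposited). A second reading took every array as Cy5 over Cy3, which turns the sign of replicates 2 and 5, and the third turned replicate 1 alone, whose channels are entered in the opposite order. Replicates 3, 4 and 6 run the same way in all 3 readings. Means and tests given as Cy5 over Cy3 use the values after replicates 2 and 5 were turned. In that reading a mean above 0 stands for higher with 59Q and is not a dye ratio. Between 19 and 11234 of the 31200 spots had no value on an array, the most on replicate 3, and duplicate spots correlated at 0.730 to 0.889. The methods describe replicates from cultures in different batches, one for each array, whereas the series text counts 4 biological replicates with 2 flip-dye pairs and does not say which arrays form a pair. All 6 arrays were taken as replicates, so if some share their RNA the independent samples are fewer than 6, and the p-values measure only the spread between these arrays.

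Eef1a1 and Eef2 took opposite signs in the 2 dye orientations: both lay above 0 wherever 59Q carried Cy5 (4 arrays) and below 0 wherever it carried Cy3 (2 arrays). As deposited, neither gene had a mean Z-ratio larger than its spread between arrays. The mean over the clones of Eef1a1 (17, of which 16 had a value on replicates 3, 4 and 6) was 2.40, -1.62, 2.19, 0.443, -1.14 and 0.996 on replicates 1 to 6. The mean over the 5 clones of Eef2 was 2.30, -2.02, 3.37, 0.0983, -0.928 and 0.290 on the same arrays. For both genes replicates 1 and 3 were the highest, replicate 4 was the lowest of the arrays with Cy5, and no array with 59Q in Cy3 overlapped any with 59Q in Cy5. Of 4926 genes on all 6 arrays, 247 had this pattern of signs (5.01%), whereas 552 had the mirror image.

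Over the 6 arrays as deposited the mean Z-ratio was 0.545 ± 1.67 (SD, n = 6 arrays) for Eef1a1 and 0.517 ± 2.00 for Eef2, and limma, fitted over 6463 genes, gave an adjusted p of 0.999 for both. Here 0 of 6463 genes (0%) passed limma at an adjusted p under 0.05, and 169 passed at an unadjusted p under 0.05. An exact 2-sided sign-flip permutation test over the arrays gave p = 0.469 for Eef1a1 and 0.531 for Eef2. A single array set the sign of one of these means: without replicate 3 the mean of Eef2 was -0.0530, while that of Eef1a1 was 0.216. With the sign of replicate 1 turned the means were -0.255 for Eef1a1 and -0.248 for Eef2, and on replicates 3, 4 and 6 alone they were 1.21 ± 0.892 and 1.25 ± 1.84 (SD, n = 3 arrays).

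Read as Cy5 over Cy3, both genes lay above 0 on 6 of 6 arrays after the signs of replicates 2 and 5 were turned. If this reading holds, both were higher with 59Q on every array. The mean was 1.46 ± 0.748 (SD, n = 6 arrays) for Eef1a1 (limma adjusted p = 0.0659) and 1.50 ± 1.28 for Eef2 (limma adjusted p = 0.138). For each gene an exact permutation by 2-sided sign flips gave p = 0.0312, the smallest that 6 arrays can give if each is an independent replicate. In this reading limma called 18 of 6463 genes (0.279%), and neither elongation factor was among them. Between the orientations, the arrays with 59Q in Cy5 exceeded those with 59Q in Cy3 by 2.89 ± 0.614 (SE) Z-ratio units for Eef1a1 and by 2.99 ± 0.912 for Eef2 (limma adjusted p = 0.169 and 0.245). Limma called 0% of the 6463 genes in this comparison, and 1041 passed at an unadjusted p under 0.05. An exact 2-sided permutation over the 15 assignments of arrays to orientations gave p = 0.0667 for Eef1a1, the smallest it allows, and 0.133 for Eef2. When both orientations were weighted equally the mean was 0.0634 ± 0.307 (SE) for Eef1a1 and 0.0194 ± 0.456 for Eef2 (limma adjusted p = 1.00 for both). Whether the difference between orientations came from the dye or from the direction in which the values were deposited was not tested.

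**Figure D1:**
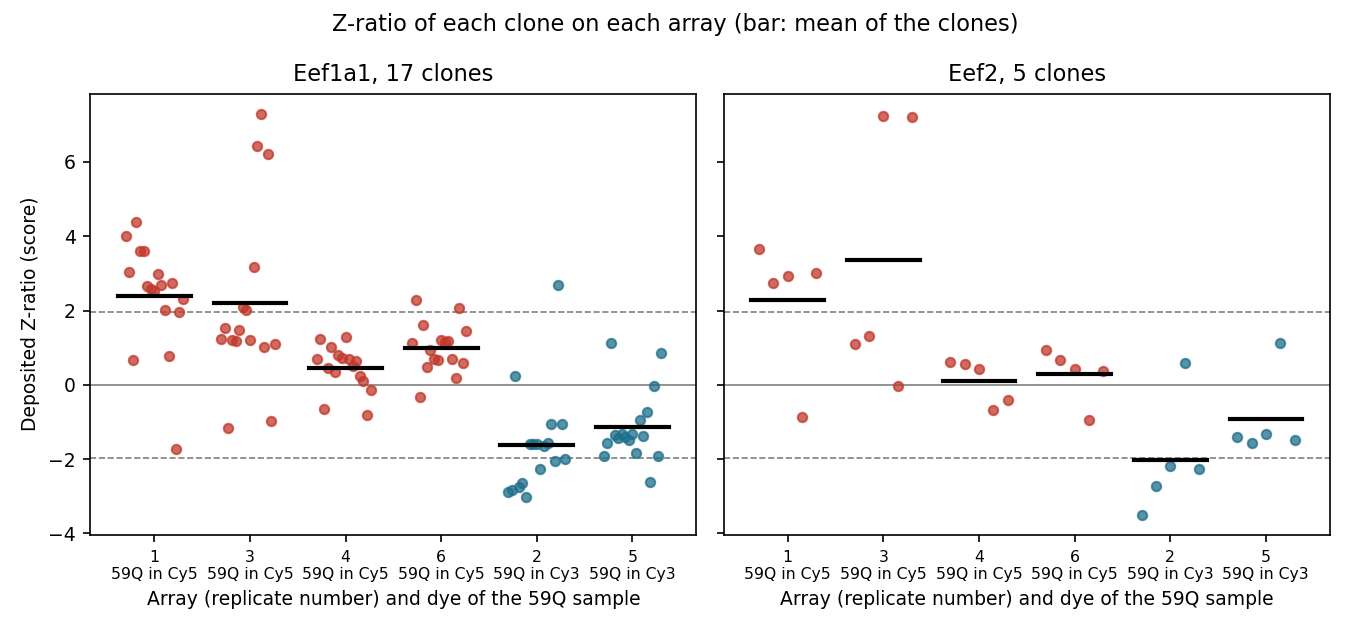
Deposited Z-ratio (y axis, score) of each clone of Eef1a1 (left) and Eef2 (right) on each array (x axis, ordered by the dye of the 59Q sample); points are clones, black bars their mean, red points arrays with 59Q in Cy5, blue points arrays with 59Q in Cy3, and dashed lines the size of Z-ratio that the methods took as changed. The 4 left bars of each panel lie above 0 and the 2 right ones below, and single clones of each gene lie on the other side.

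The clones of one gene share the RNA and the slide, so they are repeated readings of one sample and not replicates of the condition. They spread far more widely than the duplicate spots of a clone. The SD among the Eef1a1 clones was 1.45, 1.39, 2.45, 0.596, 0.969 and 0.668 on replicates 1 to 6, while the median difference between duplicate spots was 0.281, 0.323, 0.211, 0.107, 0.187 and 0.105. Among the Eef2 clones the SD was 1.80, 1.55, 3.56, 0.605, 1.16 and 0.733. Both genes spread most on replicate 3 and least on replicate 4.

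Most Eef1a1 clones followed the orientation. Of the 16 clones with values on all 6 arrays, 13 had the signs of the gene mean on each array, positive with Cy5 and negative with Cy3, and 0 showed the reverse. Among all 10156 clones on 6 arrays, 857 (8.44%) had the first pattern and 895 (8.81%) the second. The 13 clones ranged from 0.785 to 4.40 on replicate 1 and from -3.03 to -1.06 on replicate 2. On replicate 3 they ranged from 1.01 to 7.30 and on replicate 4 from 0.0979 to 1.29. They ran from -2.62 to -0.732 on replicate 5 and from 0.170 to 2.29 on replicate 6. Replicate 4 was thus the array on which these clones came nearest to 0, and it was the one with the narrowest range.

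Among the Eef1a1 clones, that at probes 1331 and 1332 had the smallest p for Cy5 over Cy3. Its Z-ratio was 3.04, -2.82, 1.53, 1.22, -1.56 and 2.29 on replicates 1 to 6, so it stood well away from 0 on every array and its orientations did not overlap. Its mean as Cy5 over Cy3 was 2.08 ± 0.751 (SD, n = 6 arrays; limma adjusted p = 0.0222), whereas as deposited it was 0.615 ± 2.30 (limma adjusted p = 0.998). A steadier one, at probes 18049 and 18050, read 2.52, -1.58, 1.21, 1.29, -1.34 and 1.21. Apart from its high value on replicate 1, it differed little in size from array to array, with a mean of 1.53 ± 0.506 as Cy5 over Cy3 (limma adjusted p = 0.0241). Probes 1775 and 1776 hold the clone with the highest value of any member on replicate 1. It read 4.40, -2.74, 1.21, 0.456, -1.36 and 1.61, and with this wider spread its mean of 1.961 ± 1.40 did not pass (limma adjusted p = 0.0635).

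Of the 16 Eef1a1 clones tested as Cy5 over Cy3, 6 were called higher, against 272 higher of 14418 clones in all (1.89%, and 1.94% with the 7 called lower). Their means lay between 1.51 and 2.08 Z-ratio units, and the limma adjusted p between 0.0222 and 0.0448. The other 10 had a limma adjusted p of 0.0586 to 0.363. As deposited, 0 of 14418 clones (0%) were called by limma, and 295 passed at an unadjusted p under 0.05. In the comparison of orientations the count was again 0 (0%), and 2198 passed at an unadjusted p under 0.05. The smallest limma adjusted p of all clones was 0.0561. The clone at probes 1331 and 1332 had this value, which the Benjamini-Hochberg adjustment gives to several clones at once, so it does not mark that clone as the first of the array. With 1 array left out, 0 Eef1a1 clones were called without replicate 1, 2 or 6, 1 without replicate 3, 4 without replicate 4 and 5 without replicate 5. The calls over all clones changed as well, from 279 to 0, 0, 39, 85, 338 and 10 without replicates 1 to 6. The Eef1a1 gene mean as Cy5 over Cy3 stayed between 1.28 and 1.67. When spots beyond 5 were left out, a setting added after seeing the data, 12 Eef1a1 clones were called.

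Of the Eef1a1 clones on 6 arrays, 3 departed from the pattern. The clone at probes 29817 and 29818 read -1.74, 2.70, -0.984, -0.824, -0.0308 and 0.577 on replicates 1 to 6. It was the only Eef1a1 clone below 0 on replicate 1, and on replicate 2 it stood at the highest value of all 22 clones. Another, at probes 1581 and 1582, read 0.655, 0.242, -1.16, -0.648, 1.12 and -0.336, and kept the common sign on replicate 1 alone. The third, at probes 30035 and 30036, read 1.95, -1.05, 1.10, -0.148, -1.91 and 1.44, and left the pattern on replicate 4 alone, by a value close to 0. That at probes 23397 and 23398 kept the pattern with small values, at 0.785, -1.06, 1.01, 0.229, -0.732 and 0.170. A further clone, at probes 31067 and 31068, had values of 2.30, -1.996 and 0.847 on replicates 1, 2 and 5 and none on the others, and was not tested. Whether the departing clones hold the sequence of the annotated gene, and whether any clone also binds the close relative Eef1a2, for which no probe is named here, was not tested.

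**Figure D2:**
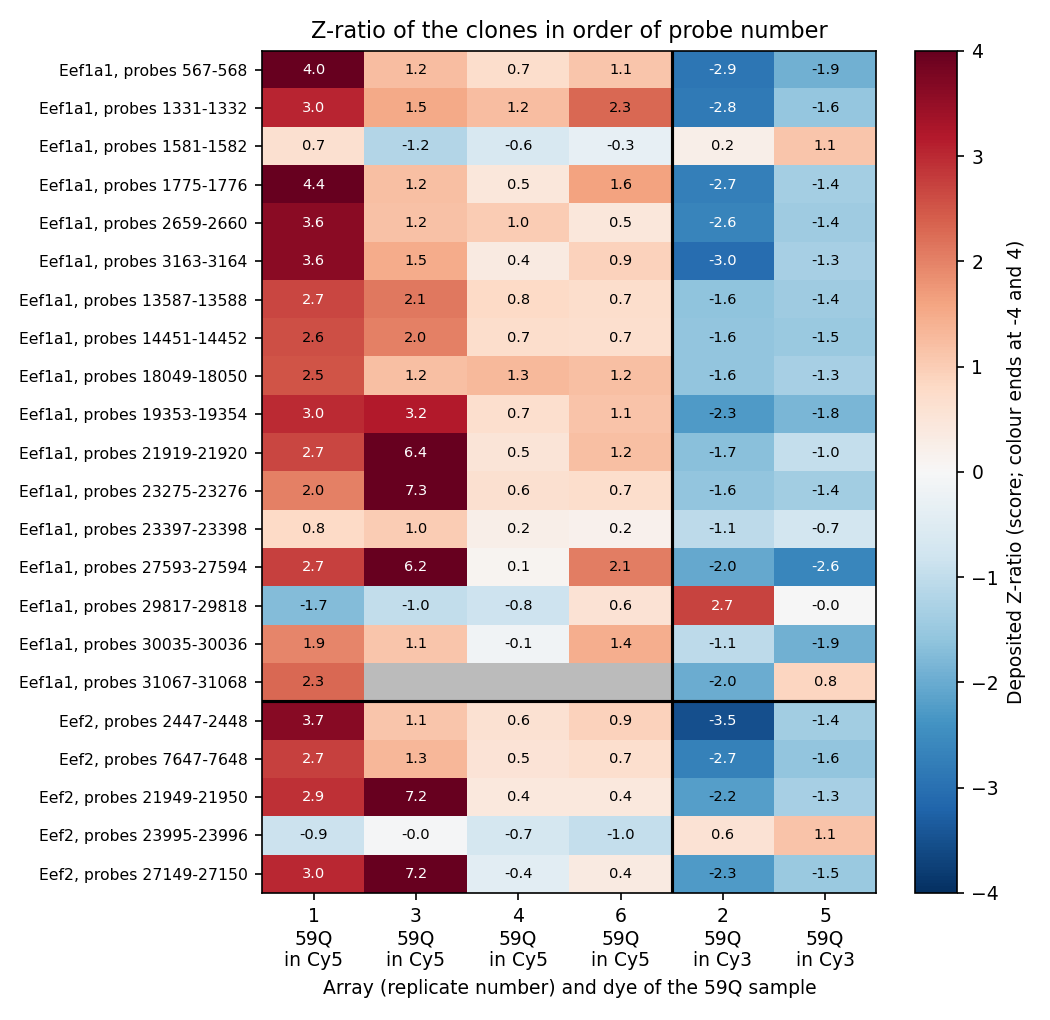
Deposited Z-ratio (colour and printed value, score) of each clone (y axis, in order of probe number within a gene) on each array (x axis, arrays with 59Q in Cy5 left of the black line and in Cy3 right of it); colours end at -4 and 4 and grey marks no value. Rows run red to the left and blue to the right for 13 of 16 Eef1a1 clones and 3 of 5 Eef2 clones, and replicate 3 holds the values above 6.

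Of the 5 Eef2 clones, 3 followed the orientation on every array and 1 showed the exact reverse. The clone at probes 7647 and 7648 read 2.74, -2.72, 1.32, 0.549, -1.58 and 0.679 on replicates 1 to 6. Its orientations did not overlap, and it was the 1 Eef2 clone called in the Cy5 over Cy3 reading, at 1.60 ± 0.956 (SD, n = 6 arrays; limma adjusted p = 0.0460). It was not called when any single array was left out. Its neighbour in the order of probe numbers, at probes 2447 and 2448, reached further on the first arrays, at 3.65, -3.50, 1.11, 0.619, -1.39 and 0.930. Its value on replicate 2 was the lowest of all members, and its mean of 1.87 ± 1.35 did not pass (limma adjusted p = 0.0680).

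The clone at probes 21949 and 21950 also kept the pattern, at 2.93, -2.20, 7.25, 0.426, -1.32 and 0.433. That at probes 27149 and 27150 was alike, at 3.02, -2.27, 7.21, -0.412, -1.48 and 0.367, and left it on replicate 4 alone. Both stood above 7 on replicate 3, far from their own values elsewhere, and neither was called (limma adjusted p = 0.149 and 0.179). In contrast, the clone at probes 23995 and 23996 had the opposite sign on each array, at -0.859, 0.583, -0.0413, -0.690, 1.13 and -0.958. It was also the 1 Eef2 clone whose sequence accession begins with CK. The other 4 begin with BG, and 3 of these followed the orientation. Among the Eef1a1 clones 4 of 5 with BG and 9 of 12 with CK did so. The 3 Eef2 clones that followed the orientation had a mean of 3.11 on replicate 1, -2.81 on replicate 2 and 3.23 on replicate 3. Over all 5 clones these were 2.30, -2.02 and 3.37. On replicates 4, 5 and 6 the 3 clones had means of 0.531, -1.43 and 0.681, against 0.0983, -0.928 and 0.290. They were picked by their signs on these same arrays, so a shift away from 0 was partly fixed by the choice.

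The methods took as changed a Z-ratio past the usual 2-sided limit of a standard normal distribution, and most member spots reached it on the first arrays. On replicate 1, 27 of 34 Eef1a1 spots and 8 of 10 Eef2 spots were past this limit above 0, beside 3.45% of all spots. On replicate 2, 14 Eef1a1 and 8 Eef2 spots were past it below 0, beside 4.17% of all, and 2 Eef1a1 spots, both of the clone at probes 29817 and 29818, were as far above. These 2 arrays carry 59Q in opposite dyes, and on both the member spots past the threshold were a larger share than that of the whole array. On replicate 3, 10 of 32 Eef1a1 and 4 of 10 Eef2 spots were above it (all spots 1.81%). On replicate 6, 4 of 32 Eef1a1 spots were above it (1.97%), and on replicate 5, 5 of 34 were below (3.11%). Eef2 had 0 such spots on replicates 4, 5 and 6, and Eef1a1 had 0 on replicate 4 (1.24%). As gene means, Eef1a1 ranked 48 and Eef2 56 from the top of 6788 genes on replicate 1, and 202 and 110 from the bottom of 6785 on replicate 2. On replicate 4 they ranked 1065 and 2214 from the top of 6100.

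The highest values of both genes came from replicate 3. On that array 197 spots (0.987% of 19966) were above 5, and 132 of them lay between probes 18201 and 26000. This range was set by hand and holds 4766 of the 19966 spots with a value. The members held 11 of the spots above 5, 7 of Eef1a1 and 4 of Eef2, in 6 clones between probes 19353 and 27593, and the clones at probes 27149 and 27593 lie beyond that range. Within it, the Eef1a1 clone at probes 23397 and 23398 (1.01) and the Eef2 clone at probes 23995 and 23996 (-0.0413) were not high. In those 6 clones the median Z-ratio on replicate 3 was 6.82, whereas the other 15 clones with a value there had a median of 1.21. The 6 were picked by a spot above 5 on this array, so a gap on replicate 3 was fixed by the choice. On the remaining arrays the same division showed no such gap: the medians were 2.84 and 2.67 on replicate 1, -2.12 and -1.61 on replicate 2, 0.472 and 0.549 on replicate 4, -1.43 and -1.39 on replicate 5, and 0.924 and 0.693 on replicate 6. One of the 6 clones, at probes 19353 and 19354, read 6.94 on one of its spots and -0.598 on the other on replicate 3, the widest gap between duplicates of any member. Without the spots above 5 the mean as deposited was 0.325 for Eef1a1 and 0.0886 for Eef2, and as Cy5 over Cy3 it was 1.24 and 1.07. What set the high values of replicate 3 was not tested.

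**Figure D3:**
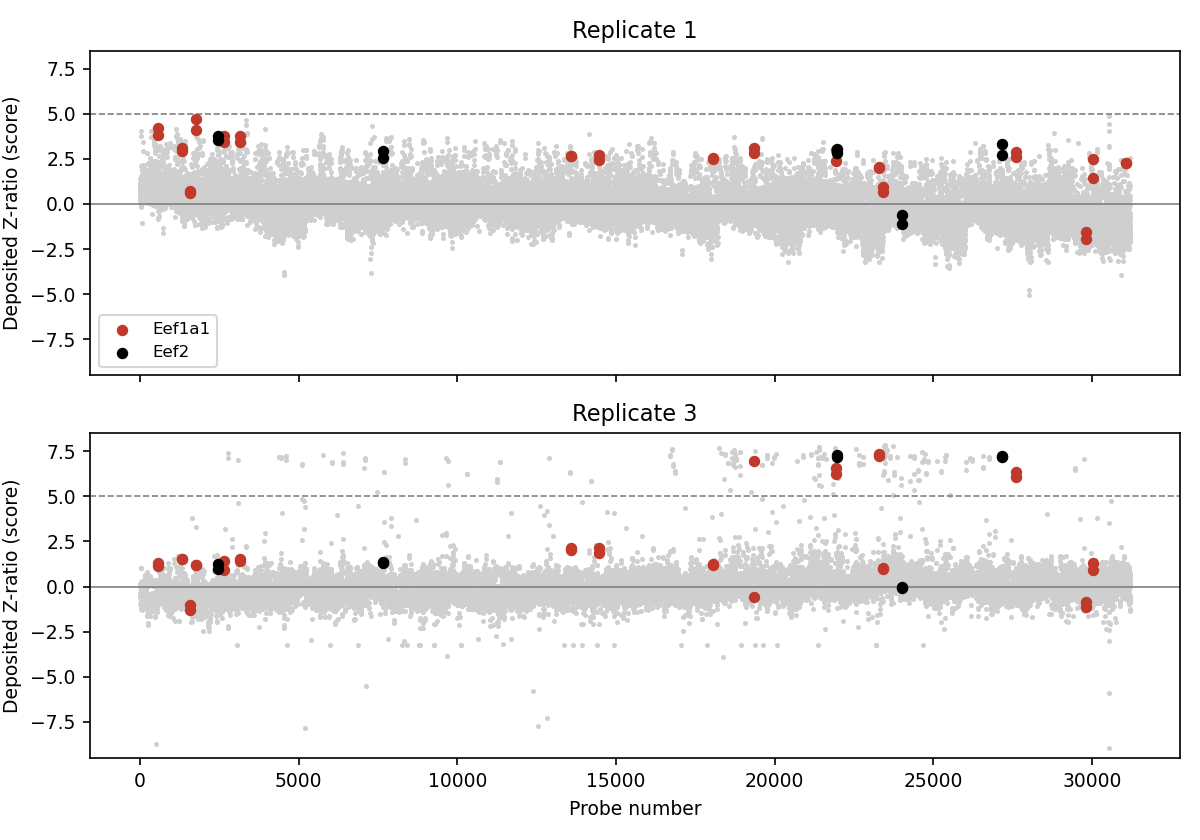
Deposited Z-ratio (y axis, score) of every spot against its probe number (x axis) on replicate 1 (top) and replicate 3 (bottom), with Eef1a1 spots in red, Eef2 spots in black, other spots in grey and a dashed line at 5. On replicate 3, 11 member spots lie above the line, all at probes 19353 or higher, whereas no spot passes it on replicate 1.

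The difference between the 2 elongation factors was smaller than its spread between arrays. Eef1a1 minus Eef2 was 0.104, 0.398, -1.18, 0.344, -0.209 and 0.706 on replicates 1 to 6, with both signs in each orientation. The mean difference was 0.0271 ± 0.666 (SD, n = 6 arrays; exact 2-sided sign-flip permutation p = 0.938). The gap on replicate 3 was the widest, and without the spots above 5 the mean difference was 0.236. The sign of this small difference depended on which arrays and readings were used.

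The genes whose Z-ratios ran closest to those of the members were named by the mean absolute difference over the 6 arrays, among 1570 genes with at least 2 clones and values on every array. To Eef1a1 these were Gapdh, the glycolytic glyceraldehyde-3-phosphate dehydrogenase (0.242 Z-ratio units), the cytoplasmic actins Actb (0.246) and Actg1 (0.300), and the ribosomal protein genes Rps18 (0.305) and Rpl23a (0.314). Gapdh read 2.54, -2.16, 1.76, 0.582, -0.965 and 1.02 on replicates 1 to 6, with the sign of Eef1a1 on each array. Nearest to Eef2 were 5 genes of ribosomal proteins, Rpl23a (0.299), Rpl3 (0.326), Rpl27a (0.437), Rps2 (0.463) and Rpl4 (0.485). Eef1a1 came sixth in that order, at 0.490, and Eef2 came at rank 16 in the order of Eef1a1. Rpl23a was thus among the 5 nearest to both. The distances are a description over arrays that all these genes share.

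Genes around both factors were described as lists. The 7 genes measured on the list of eEF1 partners were the eEF1B subunits Eef1b2, Eef1d and Eef1g, with Eef1e1, Hbs1l, Gtpbp1 and Gtpbp2. The list is thus wider than the partners of eEF1A in the elongation cycle. Of these 7 genes, 4 were above 0 and 3 below as deposited, with a median of 0.0109 beside -0.0449 over all 6463 genes. None was called in either reading. As Cy5 over Cy3, 3 were above 0 and 4 below, with a median of -0.369 beside -0.160 over all genes. Eef1b2, which encodes a subunit of eEF1B, had the highest mean of the list, 0.441 ± 1.15 (SD, n = 6 arrays). It read 1.65, -1.44, 1.18, 0.515, -0.352 and 1.08 on replicates 1 to 6, and was the 1 gene of the list with the orientation pattern of Eef1a1. Its mean as Cy5 over Cy3 was 1.04 ± 0.511 (limma adjusted p = 0.0841). Gtpbp2, a GTP-binding protein related to eEF1A, had the lowest mean, -0.419 ± 0.937, and in the Cy5 over Cy3 reading it lay at -0.797 (limma adjusted p = 0.149). Eef1g, the eEF1B gamma subunit with 6 clones, was chosen after its values were seen and read 1.13, -1.17, 0.770, -0.100, -0.448 and -0.110. Eef1d, the remaining eEF1B subunit on the list and likewise chosen afterwards, read -0.936, 0.844, 0.00545, -0.122, -0.00922 and -0.524. As Cy5 over Cy3 the mean was 0.551 ± 0.572 for Eef1g (limma adjusted p = 0.231) and -0.402 ± 0.426 for Eef1d (limma adjusted p = 0.299). These means had opposite signs, but neither gene was called.

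The 7 measured genes that act on eEF2, its kinase among them, had means close to 0. Their median was 0.00358 as deposited, and their highest and lowest means were those of the diphthamide synthesis genes Dph3 (0.311 ± 0.574) and Dph5 (-0.230 ± 0.362). Eef2k, the kinase that inhibits eEF2, was chosen after its values were seen and read -0.121, 0.0718, -0.359, -0.0799, -0.127 and 0.399, with no side common to either orientation. As Cy5 over Cy3 all 7 were below 0 with a median of -0.0658, and with each array centred on its median 4 of them were above 0. The list of eIF5A, the factor with hypusine that helps the ribosome over difficult peptide bonds, held 3 measured genes, and among those on all 6 arrays Dhps had a mean of 0.0820 and Eif5a itself of -0.0595. Eif5a2, with values on 5 arrays and chosen after these were seen, was lower, at -0.652. None of these genes was called in either reading.

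Ribosomal protein genes, which make up the nearest genes to Eef2 above, were then counted as a list. As deposited 37 of the 67 measured were above 0, with a median of 0.0860, and 0 were called. As Cy5 over Cy3 64 of 67 were above 0, with a median of 0.818 beside -0.160 over all genes, and 64 or 65 were so after centring, quantile normalization or subtracting the medians of 48 stretches of probe numbers. Limma called 2 of them higher, Rps18 (1.47 ± 0.608, adjusted p = 0.0494) and Rpl23 (1.50 ± 0.467, adjusted p = 0.0442), the second of which was chosen after its values were seen. Signs that followed the orientation on every array were found in 27 of 67, against 5.01% of all genes. Rpl31 had the highest mean as deposited, 1.05 ± 2.60, and Rpl35 the lowest, -0.368 ± 0.799 (SD, n = 6 arrays). Among 12 other TOP mRNAs, 10 were above 0 as Cy5 over Cy3 (2236 of 6463 over all genes), with a median of 0.169. The 1 that followed the orientation was Eef1b2, named above, which like Eef1d and Eef1g is on the list of eEF1 partners too. Btf3, a subunit of the nascent polypeptide-associated complex, had the highest mean of the 12 as deposited (0.495 ± 2.00). It stood at 4.32 on replicate 3 and between -1.36 and 0.849 on the other arrays. Npm1, the nucleolar nucleophosmin, had the lowest (-0.147 ± 0.500).

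Initiation factors, which as a class bring the ribosome to the start codon, were mostly below 0. The list took every gene whose symbol begins with Eif, apart from Eif5a and Eif5a2. It therefore also holds regulators of initiation such as Eif2ak4 and Eif4enif1. Of the 39 measured, 29 were below 0 as deposited, with a median of -0.104, and 38 as Cy5 over Cy3, with a median of -0.353. Over all 6463 genes 3678 were below 0 as deposited and 4227 as Cy5 over Cy3, with medians of -0.0449 and -0.160. Between 35 and 38 of them were below 0 in that reading under the other scalings. None was called in either reading, none followed the orientation of Eef1a1, and 1 had an unadjusted p under 0.05 in limma as deposited. This was Eif3m, a subunit of the eIF3 complex, which had the lowest mean (-0.794 ± 0.884, limma adjusted p = 0.999), and among those on all 6 arrays Eif4a2, an RNA helicase of initiation, had the highest (0.159 ± 0.806). Eif2a, with values on 5 arrays and chosen after these were seen, was higher, at 0.651. The aminoacyl-tRNA synthetases, which load the tRNAs that eEF1A carries, were below 0 in 11 of 15 as deposited and in 12 of 15 as Cy5 over Cy3. After subtracting the medians of 48 stretches of probe numbers these counts were 6 and 9. Qars had the highest mean (0.171 ± 1.45) and Gars the lowest (-0.432 ± 0.397), and 0 of 15 were called in either reading. Qars stood at 2.95 on replicate 3 and between -1.24 and 0.0688 on the other arrays.

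The last lists were short. Among 3 genes of termination and recycling, Etf1, the factor that reads stop codons, stood at 0.00867 ± 0.375 and Gspt1, its GTPase partner, at -0.224 ± 0.562 (SD, n = 6 arrays). Of the 4 genes measured on a list named for mitochondrial elongation, Gfm2 was the highest (0.437 ± 0.757) and Tsfm the lowest (-0.112 ± 0.357). Of 7 genes of the TOR pathway, 3 were above 0 as deposited, with Mlst8, a subunit of both TOR complexes, at 0.309 ± 1.10 and Rps6kb2, a ribosomal S6 kinase, at -0.551 ± 0.803. Mlst8 read 1.79, -1.37, 0.734, 0.608, -0.536 and 0.632 on replicates 1 to 6 and so followed the orientation, as 1 of the 4 TOR genes on all 6 arrays. None of these genes was called in either reading. Actb (0.491 ± 1.71) and Actg1 (0.455 ± 1.51) followed the orientation as well, and as Cy5 over Cy3 Actg1 was called higher (1.40 ± 0.422, limma adjusted p = 0.0442) and Actb was not (limma adjusted p = 0.0770).

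**Figure D4:**
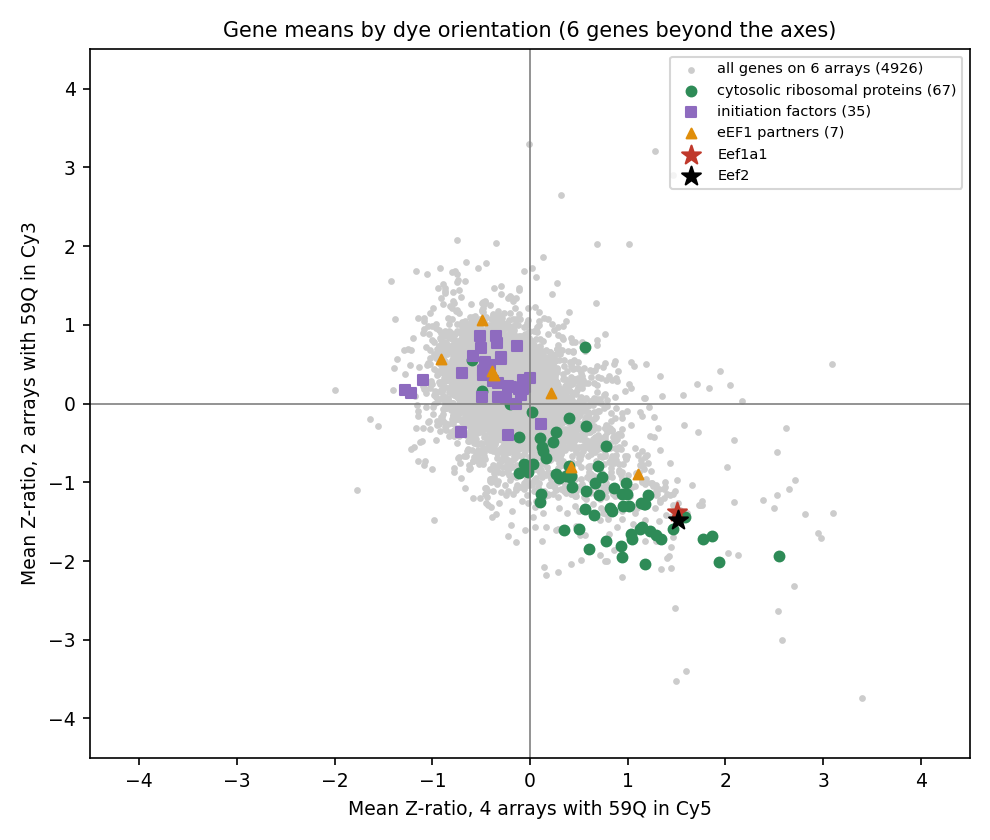
Mean deposited Z-ratio of each gene on the 4 arrays with 59Q in Cy5 (x axis, score) against its mean on the 2 arrays with 59Q in Cy3 (y axis, score) for 4926 genes on all 6 arrays, 6 of them beyond the axes; green circles are ribosomal proteins, purple squares initiation factors, orange triangles eEF1 partners, and stars Eef1a1 (red) and Eef2 (black). Both stars lie at 1.51 on the x axis and at -1.38 (Eef1a1) and -1.47 (Eef2) on the y axis, at the lower right with most ribosomal protein genes, and most initiation factors lie at the upper left.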

How the data were processed

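The authors labelled total RNA by tyramide signal amplification, scanned the slides on an Axon scanner, read them with GenePix Pro and applied a Z score transformation; its version and the log base were stated in no source used here. The deposited value is a Z-ratio, a score per spot. No intensities were used, and the number of arrays limits the precision. All 6 columns matched the sample labels. The members and gene lists were chosen with earlier results of these data known.

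Odd and next even probes shared an accession in 9449 of 9449 annotated pairs and were averaged to clones. Clones of a gene were averaged in turn. The annotation gave 1 symbol to 18384 spots, several to 514 and none to 12302; 18172 were matched by Entrez ID to the RefSeq table of GRCm38.p6 and 212 kept the symbol of the annotation. Both members matched a RefSeq promoter window. Clones (14418) and genes (6463) on at least 4 arrays were fitted with limma 3.58.1 in R 4.3.3 (lmFit, eBayes, Benjamini-Hochberg over all clones or genes), with an intercept for a reading of direction and with means of both orientations for their difference. Exact permutation tests were 2-sided. The fits were tested on simulated data. Named were all member clones, the highest and lowest gene of each list among those on 6 arrays, and the 5 nearest genes per member. Alternatives covered direction, centring, quantile normalization, stretches of probe numbers, clipping, missing values, duplicate agreement, the variance model, the median of clones, single spots and leaving out each replicate. Leaving out spots beyond 5 was added after seeing the data. Real-time PCR, blots and chromatin immunoprecipitation were not analysed here.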

Additional observations from a re-analysis of the deposited data

Results flagged for a closer look

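Eef1a1 and Eef2 differed between the dye orientations, with arrays that had 59Q in Cy5 above those that had it in Cy3 by 2.89 and 2.99 Z-ratio units; all 4 arrays of the first kind were above 0 and both of the second were below, and the difference did not pass in limma (adjusted p = 0.169 and 0.245).

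Within the 4 arrays with 59Q in Cy5, replicate 1 stood far above the others in 3 clones. The gap to the nearest array, as a share of the whole range, was 0.836 for the Eef1a1 clone at probes 567 and 568, 0.839 for the Eef2 clone at probes 2447 and 2448 and 0.941 for the Eef1a1 clone at probes 18049 and 18050, above the critical value of Dixon's test for 4 samples. With 23 groups of values examined, chance gives such a gap in about 1 in 20.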

How the results depend on the processing

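No paired analysis was possible because the flip-dye pairs that the series text mentions are not identified, and the arrays of both orientations share no replicate numbers. The mean as deposited turned sign for Eef2 when one array was left out (range -0.0530 to 1.03; Eef1a1 0.174 to 0.978), and with the sign of replicate 1 turned it was -0.255 for Eef1a1 and -0.248 for Eef2. Eef1a1 minus Eef2 ranged from -0.109 to 0.269 without single arrays and was -0.0360 with replicates 2 and 5 turned, -0.0435 on replicates 3, 4 and 6 and -0.00744 with replicate 1 turned. As Cy5 over Cy3 the Eef1a1 mean passed in limma with centring (1.53), medians of 48 stretches subtracted (1.55), clipping at 5 (1.40), all 6 arrays required (1.46) and spots beyond 5 left out (1.24). Neither gene passed in limma in any other setting tried.

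Counts of clones called as deposited became 6 for Eef1a1, 1 for Eef2 and 279 in all with replicates 2 and 5 turned, and 18 in all on replicates 3, 4 and 6. As Cy5 over Cy3 the counts were 573 in all with 48 stretches, 10 and 2 (Eef1a1 and Eef2) with clipping, 0 for Eef2 with at least 2 arrays, 11, 2 and 471 in all with 6 arrays required, 10 and 2 with duplicates that differed by over 1 left out, 0, 0 and 0 with trend and robust eBayes, 12, 2 and 441 without spots beyond 5, and 12, 2 and 590 spots when spots were tested singly. Leaving out 1 array gave 0 to 5, 0 and 0 to 338: 0 in all without replicate 1 or 2, 10 without 6, 39 without 3, 85 without 4 and 338 without 5. For the orientation difference, called clones of Eef1a1 and in all numbered 2 and 71 with centring, 4 and 212 with 48 stretches, 3 and 94 with clipping, 6 and 202 with 6 arrays required (Eef2 1), 1 and 53 with agreeing duplicates, 2 and 83 with trend and robust eBayes (Eef2 1), 6 and 232 without spots beyond 5 (Eef2 2) and 1 and 58 without spots above 5 on replicate 3; 2 in all were called with quantile normalization, and 0 to 12 when 1 array was left out. The causes were not tested. Of all values recomputed, 224 kept their direction and their side of the threshold or stayed within 1.5 times as counts, 59 counts moved further, 9 means or differences reversed and 5 newly passed.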
